A study of Mus musculus with 10 samples.

Results

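The smooth muscle contractile genes are 33 genes that code for the contractile apparatus of smooth muscle, its anchors in the membrane, the channels and calcium stores that switch it on, the proteins that relax it and the transcription factors that drive it. They were taken by symbol, with no measured value in the rule, and all 33 were found among the 35275 Ensembl gene IDs counted in each library. All 33 passed the filter on low counts that left 15610 genes for the test, and the lowest count of any of them in any library was 32 reads.

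RNA-seq of proximal intestine was compared between 5 *Zip14* (*Slc39a14*) knockout mice (KO, n = 5) and 5 wild-type mice (WT, n = 5), with 1 library per mouse made with an mRNA-seq kit. *Slc39a14* codes for a membrane transporter of zinc and other metals. The sample labels give only the genotype and an age of 8 to 10 weeks, the series title names a deletion in enterocytes, and the methods of the study describe whole-body knockout mice for RNA-seq, bred with their controls from heterozygous parents. Sex and age were not given per mouse. The groups are called KO and WT after the labels, since the deposited values cannot settle which of these deletions the mice carried.

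Smooth muscle of the gut wall contracts when calcium enters through voltage-gated channels or leaves internal stores, which activates myosin light chain kinase. The kinase phosphorylates the regulatory light chain of myosin, the motor pulls on actin thin filaments, and myosin phosphatase and cyclic GMP signalling reverse this step. Many genes of the apparatus are controlled by serum response factor (SRF), which binds a DNA element called the CArG box, and by its muscle-restricted partner myocardin.

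The counts per library summed to between 16729787 and 20819678 in WT mice and to between 17118742 and 19414828 in KO mice. *Slc39a14* was at 260.4 ± 62.5 CPM (counts scaled to the size of the library; mean ± SD, n = 5) in WT and at 102 ± 32.9 in KO, and every KO library was below every WT library. KO replicate 1 was at 160.1 CPM, and the other KO libraries were at between 78.5 and 93.8. The epithelial markers *Krt8* and *Vil1* averaged 3102 and 3086 CPM in WT and 5302 and 2199.7 in KO. *Fabp6*, the bile acid-binding protein of ileal enterocytes, was between 0.0638 and 1.74 CPM in WT libraries and between 2307 and 9058 in KO libraries. *Hoxb9*, a homeobox gene of posterior body regions, was at 0.224 CPM or below in WT libraries and at 0.282, 42.9, 49.9, 47.2 and 62.3 in KO replicates 1 to 5. Genes with a known position along the gut thus differed between the groups. The study states that *Zip14* expression is highest in the proximal region and falls along the gut. For *Slc39a14* and for every result below, the position sampled and the genotype thus cannot be told apart.

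The CArG box (CC, then 6 bases of A or T, then GG, which reads as the same pattern on both strands) was looked for in RefSeq promoter windows of 250 bases before to 50 bases after each gene's start (GRCm38.p6). Of the 33 genes, 29 had a window, and *Tagln*, *Myh11*, *Actg2* and *Myocd* had none. *Myl9*, *Srf*, *Vcl* and *Dmd* held a box, 4 of 29 (13.8%), beside 488 of 27025 genes in all (1.81%). They are shown because genes with a box of the same kind had log2 fold changes in KO from 0.13 (*Vcl*) to 1.74 (*Myl9*). A relaxed form with up to 1 G or C among the inner bases, which includes the strict form, was in 9 of 29 of these genes (31.0%) and 11.3% of all genes. The sequences run 5′ to 3′ on the strand of the gene, with the box in capitals, and each ends before the start of the gene in RefSeq.
*Myl9* (chr2:156775283-156775332, plus strand, box 161 bases before the start): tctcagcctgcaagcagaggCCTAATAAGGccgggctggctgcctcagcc
*Srf* (chr17:46556195-46556264, minus strand, boxes 82 and 62 bases before the start): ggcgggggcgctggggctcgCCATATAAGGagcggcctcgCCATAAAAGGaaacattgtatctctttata
*Vcl* (chr14:20929151-20929200, plus strand, box 227 bases before the start): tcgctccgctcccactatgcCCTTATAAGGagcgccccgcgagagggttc
*Dmd* (chrX:82948752-82948801, plus strand, box 98 bases before the start): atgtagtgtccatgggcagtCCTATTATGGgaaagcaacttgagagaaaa
A match in these windows is a description of the letters and not a site of binding.

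Of the 33 smooth muscle genes, 27 were higher in KO than in WT by edgeR's quasi-likelihood test at an adjusted p under 0.05, where 16.0% of all genes tested were higher. Only *Itga8* was lower, where 13.9% of all genes tested were lower, and 5 did not pass the test (*Mylk*, *Myocd*, *Prkg1*, *Vcl* and *Dmd*). The median log2 fold change of the 33 genes was 1.21, beside 0.03 over all genes tested, and 19 of the 27 changed by more than 1 on the log2 scale. In 25 genes every KO library was above every WT library, which held for 10.2% of all genes tested, and in *Itga8* every KO library was below every WT library, which held for 10.8%. The mean log2 CPM over the 33 genes was 5.51, 5.30, 5.75, 5.89 and 5.95 in WT replicates 1 to 5, and 6.45, 6.38, 6.81, 7.34 and 6.43 in KO replicates 1 to 5. The groups did not overlap in this mean, which differed by 1.0 (5.68 ± 0.27 in WT and 6.68 ± 0.41 in KO, SD, n = 5). The genes took between 0.307% and 0.50% of the counts of a WT library and between 0.727% and 1.94% of a KO library. In libraries of whole tissue, a larger share of muscle cells and more of these RNAs per muscle cell cannot be told apart.

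**Figure D1:**
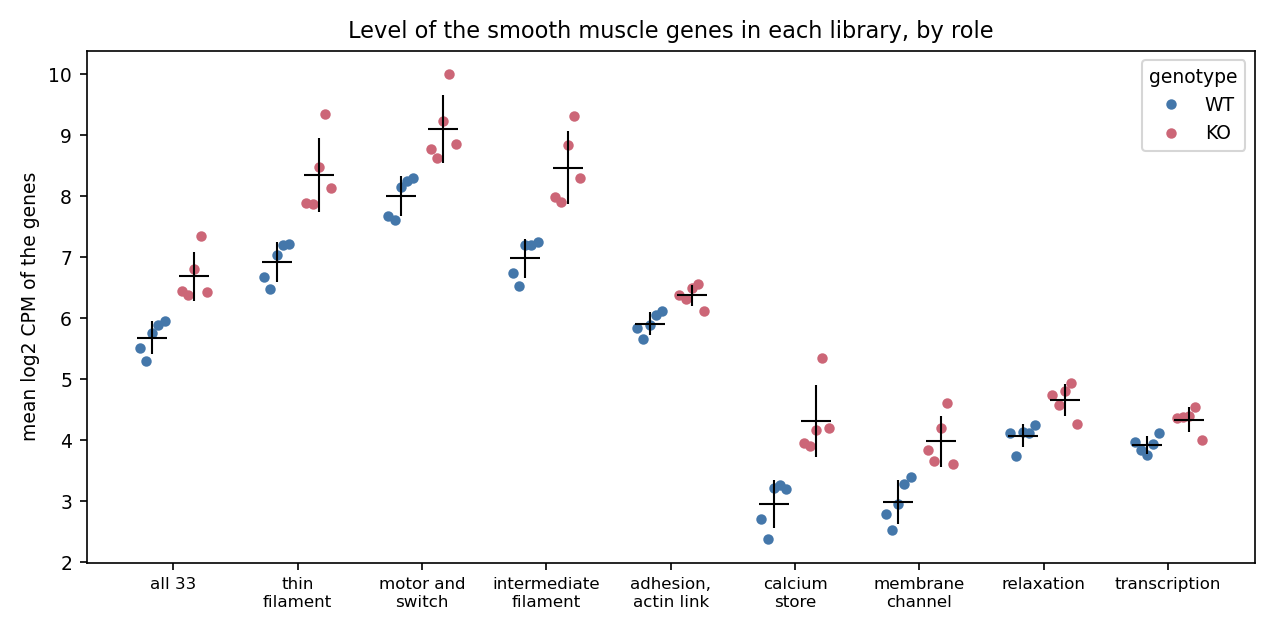
Mean log2 CPM of all 33 smooth muscle genes and of each role (x axis) in the 5 WT and 5 KO libraries (points), with the group mean and SD (black lines). The KO libraries lie above the WT libraries in the mean over the 33 genes (6.38 to 7.34 against 5.30 to 5.95). The adhesion and transcription genes show the smallest differences, 0.46 and 0.41, and KO replicate 5 lies within the WT range in both.

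KO replicate 4 stood above the other KO libraries, as the highest KO library in 26 of the 33 genes, and WT replicate 2 was the lowest WT library in 26. Without KO replicate 4 the mean differed by 0.84 in place of 1.0, 26 of the 27 genes passed the test, and the median log2 fold change was 0.86 in place of 1.21. Without KO replicate 1, the KO library with *Hoxb9* near the WT level, the mean differed by 1.06 and 27 genes were higher. The calls that depend on single mice are those of *Cacna1c*, *Tpm1*, *Pde5a* and *Mylk*, which are given with their values.

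All 9 thin filament genes rose. *Actg2*, the actin of visceral smooth muscle, was at 113, 83.6, 133, 151 and 173 CPM in WT replicates 1 to 5 and at 351, 277, 548, 1016 and 444 in KO replicates 1 to 5. It was 4.04-fold higher (log2 fold change 2.01, SE 0.34, edgeR adjusted p = 0.00218), and the lowest KO library was above the highest WT library. *Cnn1* (calponin 1), an actin-binding protein that restrains the myosin motor, was at 61.4, 53.5, 76.3, 83.9 and 94.5 CPM in WT and at 193, 197, 332, 558 and 208 in KO. Its increase had the same size (4.03-fold, log2 fold change 2.01, SE 0.31, edgeR adjusted p = 0.00147), again with no overlap of the groups. *Tagln* (transgelin, SM22α), an actin cross-linker, rose 3.83-fold from 168 ± 39.8 to 644 ± 344 CPM.

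*Acta2*, the actin of vascular smooth muscle that visceral muscle also makes, was at 216, 180.2, 295, 312 and 340.1 CPM in WT and at 536, 490.3, 672, 1672 and 672 in KO. It rose 3.01-fold (log2 fold change 1.59, SE 0.34, edgeR adjusted p = 0.00665), with KO replicate 4 far above the other KO mice, which lay close together. Of the tropomyosins, which lie along the actin filament and gate access of the motor, *Tpm2* rose 3.30-fold, from 148 ± 35.8 to 487 ± 263 CPM. *Tpm1*, which many cell types make, rose 1.75-fold, from 553 ± 51.6 to 968 ± 384 CPM (edgeR adjusted p = 0.0221), a call that was lost without WT replicate 1 or WT replicate 2. The remaining members of the filament were *Lmod1* (leiomodin 1, which nucleates actin), *Smtn* (smoothelin) and *Cald1* (caldesmon, a brake on the motor), which rose 2.33-, 2.32- and 2.07-fold.

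Per length of the merged exons, *Acta2* was the most abundant of the thin filament genes in both groups, at 122 RPKM (CPM divided by the exon length in kilobases) in WT and 368 in KO on average. *Actg2* was at 84.1 RPKM in WT and 338 in KO, close to *Tagln* at 84.5 and 324. Within a library, the log2 CPM of *Actg2* minus that of *Acta2* was between -1.15 and -0.94 in WT and between -0.82 and -0.29 in KO. The log2 CPM of *Tpm2* minus that of *Tpm1* was between -2.36 and -1.70 in WT and between -1.40 and -0.80 in KO. Both differences were thus higher in every KO library than in any WT library, by 0.44 and 0.88 on average (two-sided exact permutation test, p = 0.00794, the smallest that 5 against 5 allows, and 0.0106 after Benjamini-Hochberg adjustment over 4 pairs). The 4 pairs were set up by shared function with the results of single genes known, so that these p-values are not independent tests.

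**Figure D2:**
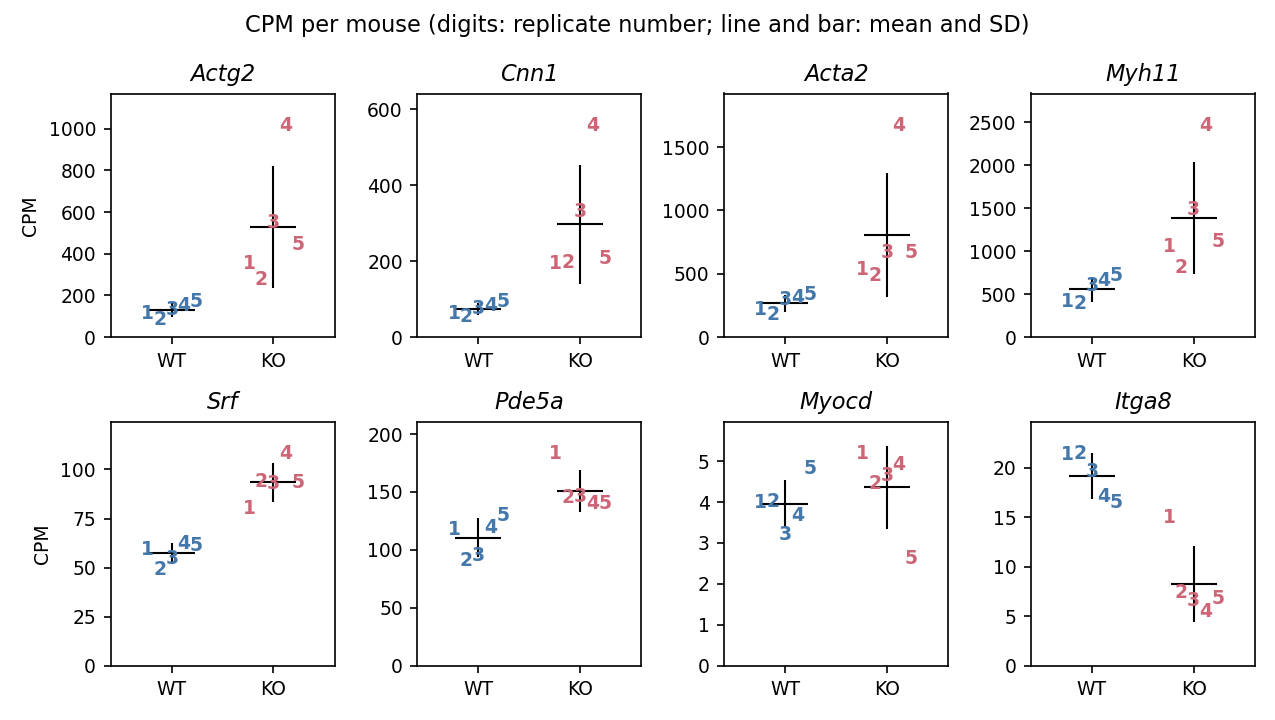
CPM (y axis, from 0) of 8 smooth muscle genes in each mouse, with the replicate number as the plotting symbol, and the group mean (horizontal line) and SD (vertical line, n = 5). KO replicate 4 is the highest in *Actg2*, *Cnn1*, *Acta2*, *Myh11* and *Srf*, while *Itga8* is lower in KO, with KO replicate 1 nearest to the WT mice.

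Of the motor and its switch, 3 of 4 genes rose. *Myh11*, the smooth muscle myosin heavy chain, was at 416, 394, 596, 664 and 713 CPM in WT and at 1050.0, 808, 1482, 2467 and 1115 in KO. It rose 2.49-fold (log2 fold change 1.31, SE 0.30, edgeR adjusted p = 0.009), and the groups did not overlap. *Myl9*, the regulatory light chain that the kinase phosphorylates, rose 3.34-fold, from 169 ± 49.2 to 563 ± 319.6 CPM. Within a library, the log2 CPM of *Myl9* minus that of *Myh11* rose from -1.73 ± 0.06 in WT to -1.33 ± 0.19 in KO, with every KO library above every WT library (two-sided exact permutation test, p = 0.00794, adjusted p = 0.0106 over 4 pairs). This pair, too, was set up with the results of single genes known, so that its p-value is not an independent test.

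*Mylk*, the gene of myosin light chain kinase, was at 566, 522, 742, 694 and 709 CPM in WT and at 852, 676, 935, 1733 and 824 in KO. KO replicate 2 lay within the range of the WT mice, and the log2 fold change of 0.63 (SE 0.24) did not pass the test (edgeR adjusted p = 0.0659). It passed without KO replicate 2, with DESeq2 and with scaling to library size only, and without KO replicate 4 the log2 fold change was 0.35 (edgeR adjusted p = 0.103). *Ppp1r12b*, a regulatory subunit of the myosin phosphatase that opposes the kinase, rose 1.97-fold, from 76.3 ± 14.3 to 150 ± 50 CPM, with no overlap.

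Both intermediate filament genes rose. *Des* (desmin), which ties the contractile units of muscle cells together, was at 192, 167, 247, 247 and 250.3 CPM in WT and at 484, 464, 808, 1217 and 609 in KO, a 3.24-fold increase (log2 fold change 1.70, SE 0.27, edgeR adjusted p = 0.00153). *Synm* (synemin), a filament partner of desmin, rose 2.69-fold.

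The adhesion and actin-linking genes were the most divided role, with 4 genes higher, 1 lower and 2 that did not pass. *Pgm5* (aciculin), a protein of muscle adhesions that binds dystrophin and utrophin, rose 3.18-fold, from 36.7 ± 14 to 117 ± 41.4 CPM. *Flna* (filamin A), an actin cross-linker, rose 2.21-fold, *Synpo2* (myopodin) rose 1.95-fold and *Actn1* (α-actinin 1) rose 1.44-fold, all with no overlap of the groups. *Vcl* (vinculin), which couples adhesions to actin, was at 68.9, 51.7, 62.6, 63.6 and 61.6 CPM in WT and at 75.1, 92.4, 78.7, 42.3 and 47.9 in KO. The KO mice lay on both sides of the WT mice, with 3 above all of them and 2 below, and the log2 fold change was 0.13 (SE 0.20, edgeR adjusted p = 0.655).

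*Dmd* (dystrophin), which links actin to the membrane complex, was at 18.0, 20.7, 16.7, 22.8 and 24.0 CPM in WT and between 22.6 and 25 in KO, with a log2 fold change of 0.22 (SE 0.11, edgeR adjusted p = 0.144). KO replicate 4, the highest KO library for most smooth muscle genes, was the lowest KO library for both *Vcl* and *Dmd*. *Itga8*, the integrin α8 subunit, was at 21.3, 21.4, 19.6, 17.1 and 16.5 CPM in WT and at 15, 7.4, 6.58, 5.48 and 6.77 in KO. It fell to 0.43 of the WT level (log2 fold change -1.22, SE 0.25, edgeR adjusted p = 0.00555), and KO replicate 1, with *Hoxb9* at 0.282 CPM, was nearest to the WT mice. Whether position along the gut had a part in this was not tested.

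The 2 transcription factors differed. *Srf* was at 59.2, 49.1, 54.4, 62.4 and 61.2 CPM in WT and at 79.9, 93.7, 93.1, 108 and 93.3 in KO, a 1.64-fold increase with little spread (log2 fold change 0.71, SE 0.10, edgeR adjusted p = 8.74e-04). Every KO mouse was above every WT mouse. *Myocd* (myocardin) was at 4.0, 4.02, 3.21, 3.68 and 4.82 CPM in WT and at 5.18, 4.46, 4.64, 4.91 and 2.62 in KO, with a log2 fold change of 0.14 (SE 0.20, edgeR adjusted p = 0.613). The groups overlapped, and its level rested on few reads, 348 in all WT libraries together and 416 in all KO libraries.

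All 3 membrane channel genes rose. *Kcnmb1* and *Kcnma1*, the β1 and pore-forming subunits of the large-conductance calcium-activated potassium channel that damps contraction, rose 2.53- and 1.94-fold, to 14.5 ± 6.99 and 11.7 ± 2.29 CPM. The log2 CPM of *Kcnmb1* minus that of *Kcnma1* overlapped between the groups (-0.30 to 0.39 in WT, -0.32 to 0.98 in KO; two-sided exact permutation test, p = 0.294, adjusted p = 0.294 over 4 pairs). *Cacna1c*, the pore of the L-type calcium channel, was at 11.2, 11.5, 13.9, 18.5 and 19.8 CPM in WT and at 23.7, 20.5, 27.8, 39.9 and 17.3 in KO. It rose 1.73-fold (log2 fold change 0.79, SE 0.24, edgeR adjusted p = 0.0314), but KO replicate 5 lay within the WT range, and the call was lost without any of WT replicates 1, 2 and 3 or KO replicates 3 and 4.

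The 3 calcium store genes rose as well. *Pln* (phospholamban), an inhibitor of the calcium pump of the sarcoplasmic reticulum, was at 3.58, 2.04, 4.61, 5.33 and 4.65 CPM in WT and at 9.41, 10.3, 9.61, 27.3 and 10.1 in KO, a 3.30-fold increase (edgeR adjusted p = 0.00583). Its KO mice other than replicate 4 lay within a narrow range, above all WT mice. *Jph2* (junctophilin 2), which holds the store close to the cell membrane, rose 2.68-fold with no overlap, and *Casq2* (calsequestrin 2), which binds calcium inside the store, rose 2.35-fold, with KO replicate 2 at 6.29 CPM below the highest WT library at 6.47.

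Of the 3 relaxation genes, 2 rose. *Hspb6* (HSP20), a small heat shock protein whose phosphorylation goes with relaxation, rose 2.78-fold, from 12.9 ± 2.51 to 35.9 ± 18.3 CPM. *Pde5a*, the phosphodiesterase that degrades cyclic GMP, was at 118, 90.5, 94.8, 119 and 129.7 CPM in WT and at 183, 145, 146, 139.9 and 140.2 in KO. It rose 1.37-fold (log2 fold change 0.45, SE 0.12, edgeR adjusted p = 0.0191), a call that was lost without WT replicate 2 or 3, and its highest KO library was replicate 1. *Prkg1*, the cyclic GMP-dependent kinase, was at 3.58, 2.81, 3.62, 3.08 and 3.36 CPM in WT and at 4.39, 4.2, 3.45, 3.0 and 1.68 in KO, a log2 fold change of 0.02 (SE 0.24, edgeR adjusted p = 0.952) with KO mice on both sides of the WT mice.

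**Figure D3:**
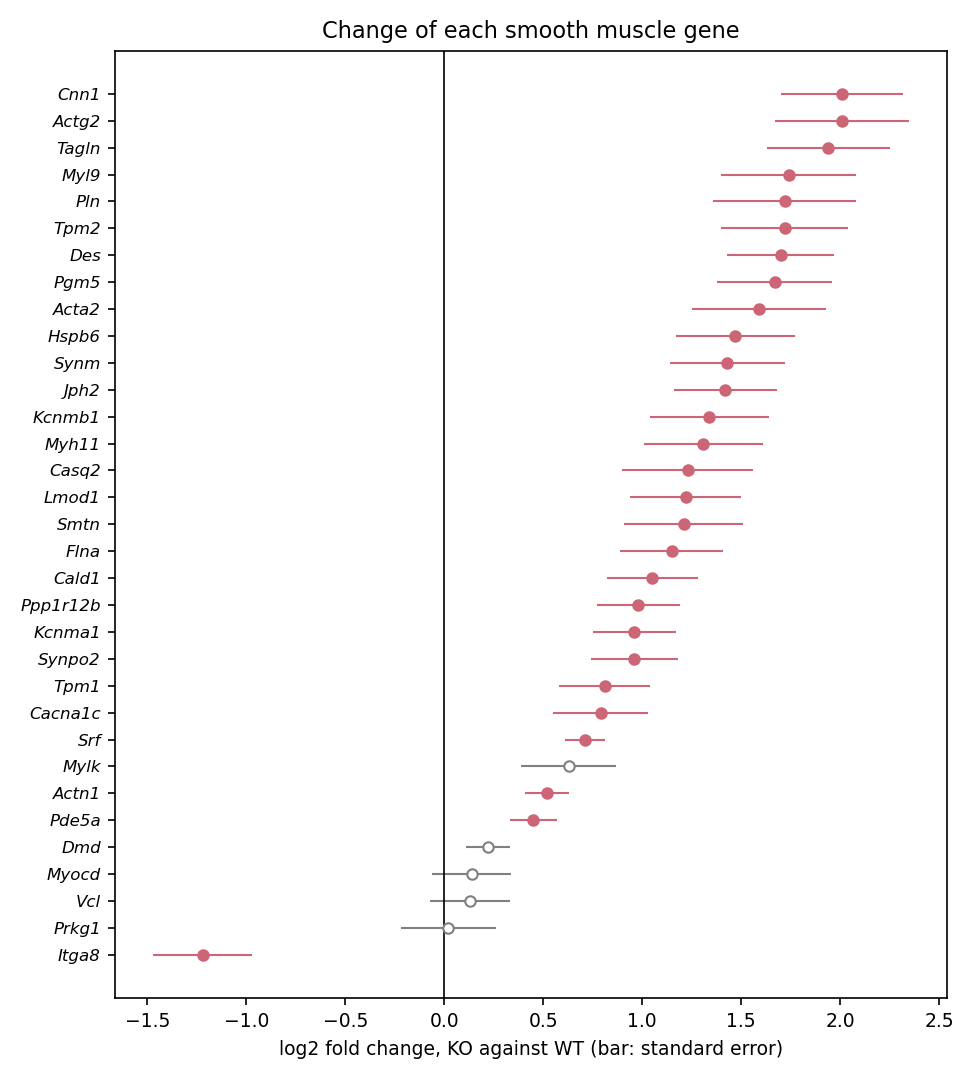
Log2 fold change of each smooth muscle gene in KO against WT (x axis, points) with its standard error from edgeR (bars), sorted by size; filled points passed an adjusted p of 0.05. Values run from -1.22 in *Itga8* to 2.01 in *Actg2* and *Cnn1*, and the 5 open points are *Mylk*, *Dmd*, *Myocd*, *Vcl* and *Prkg1*.

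Most of the genes also moved together between mice of the same genotype. After the group mean was taken from each gene, its correlation with the mean of the other 32 over the 10 libraries was above 0.9 in 22 genes (a description over n = 10, in which the points share the scaling of each library). It was 0.995 for *Cald1* and 0.987 for *Flna*, and 0.27 for *Myocd*, 0.10 for *Pde5a* and *Dmd*, -0.01 for *Prkg1*, -0.41 for *Vcl* and -0.62 for *Itga8*. When the mean of the other 32 genes was subtracted in each library, the median SD of log2 CPM within a group fell from 0.34 to 0.15 in WT and from 0.54 to 0.28 in KO.

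To find the genes that departed from the rest, the test was repeated with library scaling that made the mean log2 CPM of the 33 genes equal in all libraries. On this scale a change is one relative to the mean change of the smooth muscle genes, 274 of all genes tested (1.76%) were higher and 73.5% were lower. Of the 33 genes, 8 were higher, 5 were lower and 20 did not pass. The 8 were *Actg2* (relative log2 change 0.93, SE 0.24, edgeR adjusted p = 0.00361), *Cnn1* (0.92), *Tagln* (0.86), *Myl9* (0.66), *Pgm5* (0.66), *Pln* (0.66), *Des* (0.63) and *Tpm2* (0.63), and in all but *Pln* the groups did not overlap. The calls of *Tpm2*, *Myl9* and *Pln* were lost without 1 mouse, namely WT replicate 1 or KO replicate 3, WT replicate 1, and WT replicate 2 or KO replicate 4.

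The 5 genes that were lower relative to the rest were *Itga8* (relative log2 change -2.16, SE 0.37, edgeR adjusted p = 6.08e-04), *Prkg1* (-0.94), *Myocd* (-0.86), *Vcl* (-0.80) and *Dmd* (-0.74), and the groups overlapped only in *Vcl*. The call of *Vcl* was lost without WT replicate 1, WT replicate 2, KO replicate 3 or KO replicate 5. *Myocd* minus the other 32 genes was between -4.15 and -3.36 in WT and between -5.17 and -4.18 in KO on the log2 scale. Which genes depart depends on what they are set against. With only the thin filament and motor genes as the base, edgeR called 0 of the 33 higher (1 at an unadjusted p under 0.05) and 8 lower, the same 5 with *Mylk*, *Pde5a* and *Actn1*.

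**Figure D4:**
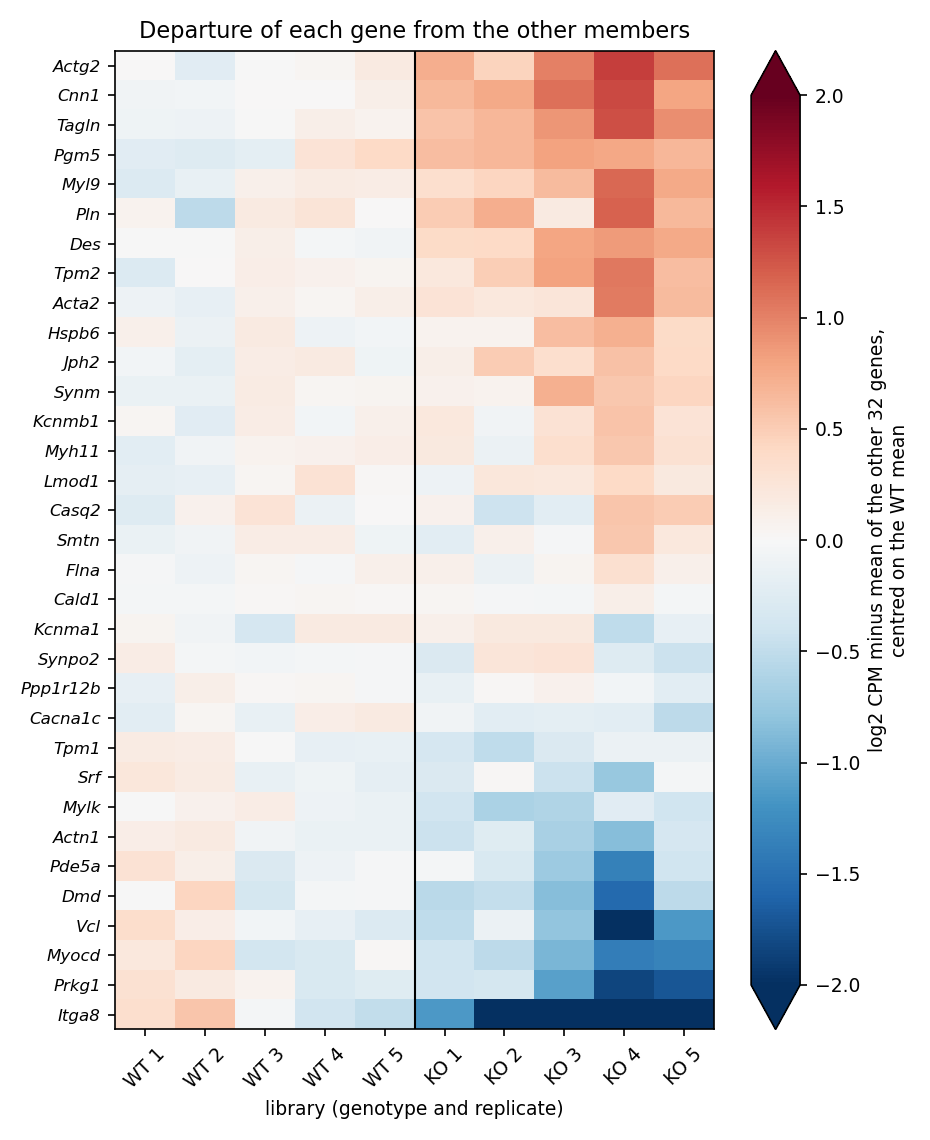
Log2 CPM of each smooth muscle gene (rows) minus the mean of the other 32 genes in the same library (columns), centred on the WT mean of the row; red is above and blue below, and colours end at 2 in either direction. The top rows (*Actg2*, *Cnn1*, *Tagln*) are red in all 5 KO libraries, and *Itga8* at the bottom is blue in all 5, least in KO replicate 1.

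The 8 genes that were higher relative to the rest have short merged exons (all annotated exons of a gene joined), of between 1162 and 3754 bases. The 5 that were lower relative to the rest have longer ones, between 6424 and 23801 bases. Genes that did not depart lie in both ranges, such as *Acta2*, *Srf*, *Hspb6* and *Casq2* in the shorter and *Myh11* and *Cald1* in the longer. Across the 33 genes, Spearman's rank correlation between exon length and log2 fold change was -0.73, beside -0.35 over 67 other contractile genes and -0.10 over 15538 genes tested with a known length. The median log2 fold change was 1.63 in the 16 shortest genes and 0.79 in the 17 longest. The same coefficient between the mean log2 CPM in WT and the log2 fold change was 0.26 in the 33 genes, -0.54 in the 67 others and -0.31 over all genes tested with a known length. These are descriptions across genes, which are not independent replicates. The part of length in the departures was not tested.

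**Figure D5:**
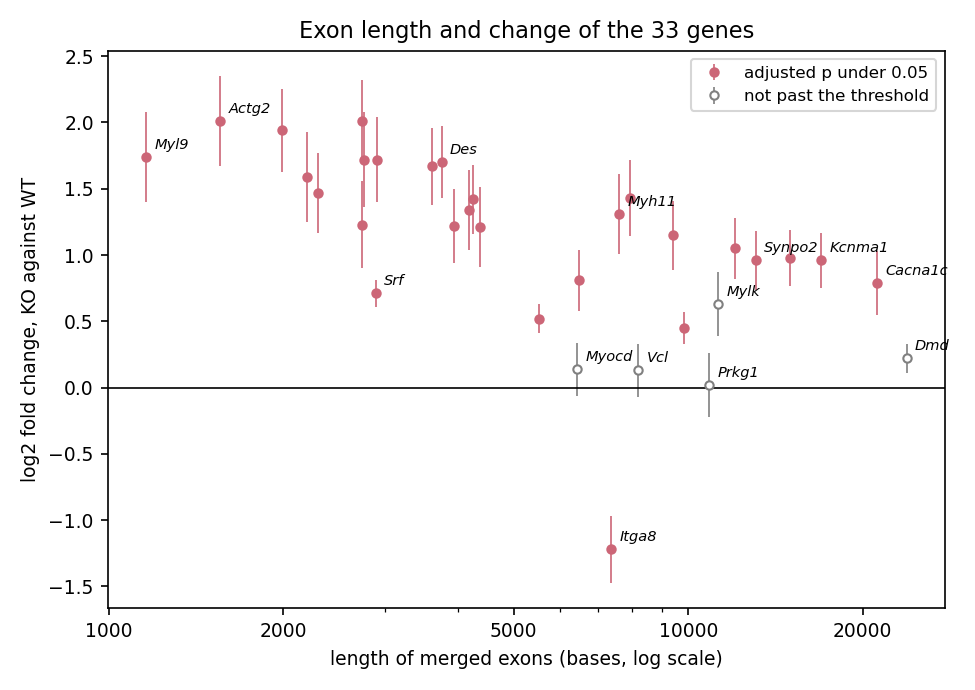
Log2 fold change of the 33 smooth muscle genes (y axis, bars: standard error) against the length of their merged exons (x axis, log scale); filled points passed an adjusted p of 0.05. The 8 shortest genes, with exons of 1162 to 2759 bases, all rose by more than 1, and the 5 open points lie between 6424 and 23801 bases.

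The reading of 9 of the genes has a further limit. Exons of *Tagln*, *Des*, *Smtn*, *Synm*, *Pln*, *Hspb6*, *Ppp1r12b*, *Vcl* and *Itga8* overlap an annotated gene on the other strand (*Pcsk7* for *Tagln* and *Cep85l* for *Pln*), and the handling of strand in counting is not known.

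Other genes of the contractile pathway were listed by function. Of 67 tested, 28 rose and 4 fell. Over all genes tested, 16.0% rose and 13.9% fell, the shares that belong beside the counts of every list below. The median log2 fold change of the 67 was 0.38, beside 1.21 in the 33 genes, and the difference between the lists was not tested. Of 12 genes that set the calcium sensitivity of the motor, 4 rose, among them *Ppp1r14a* (CPI-17, an inhibitor of myosin phosphatase), which went from 9.74 ± 3.39 to 35.8 ± 13.4 CPM, and the alkali light chain *Myl6* (log2 fold change 0.74). *Rhoa*, a small GTPase that most cells use, had a log2 fold change of -0.02 and did not pass. Of 9 receptor and cyclic GMP genes, 2 rose and 2 fell. *Chrm2*, the M2 muscarinic receptor, rose from 11.5 ± 3.24 to 30.3 ± 11.9 CPM, while the purinergic receptor *P2rx1* went from 20.9 ± 2.94 to 8.49 ± 3.36, with no overlap in either gene. *Ppp1r14a*, *Chrm2* and *P2rx1* were named after their values were seen.

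Of 10 further calcium handling genes, 4 rose, and the 3 most abundant were *Atp2a2* (the calcium pump that phospholamban inhibits, log2 fold change 0.11, not past the test), *Atp2b4* (0.92, which passed) and *Itpr1* (-0.51, not past the test). Of 13 cytoskeleton and adhesion genes, 8 rose and 1 fell, with *Csrp1*, a LIM protein of smooth muscle, at 145 ± 29.5 CPM in WT and 379 ± 132 in KO. Of 12 genes of the dystrophin complex and caveolae, 7 rose and 5 did not pass. *Cavin1* and *Cav1*, which build caveolae, rose by 1.10 and 1.05 on the log2 scale, while *Dag1* (dystroglycan), the membrane partner of dystrophin, had a log2 fold change of -0.59 that did not pass (edgeR adjusted p = 0.0787). Of 11 further transcription factors, 3 rose and *Gata6* fell, from 116 ± 21.9 to 48.2 ± 13.9 CPM. *Mrtfb*, a partner of SRF in many cell types, had a log2 fold change of 0.05 and did not pass.

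The counterparts of these genes in non-muscle cells were read beside them. Of 15 such genes, 5 rose and 10 did not pass, with a median log2 fold change of 0.20. *Actb* and *Actg1*, the cytoplasmic actins, were at 3324 ± 109 and 1209.6 ± 145 CPM in WT and at 3889.9 ± 443 and 1332 ± 159 in KO, and neither passed the test, nor did *Actn4*. Of 14 genes of striated muscle, 7 could be tested and only *Ckm* (muscle creatine kinase) passed the test, as higher. The median log2 fold change of the 7 was 1.18, with values from -0.19 to 1.74. The summed level of the 14 genes was between 13.7 and 29.3 CPM in WT and between 22.2 and 70.4 in KO. *Myh4* was at 0 in every library.

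Markers of other cells of the gut wall were read beside these genes. All 7 markers of enteric neurons and all 4 of enteric glia rose, with median log2 fold changes of 1.53 and 1.55. Their summed levels were low, between 17 and 25.2 CPM in WT and between 30.9 and 121 in KO for neurons, and between 3.38 and 6.98 and between 7.66 and 22.1 for glia. Of 5 markers of interstitial cells of Cajal, the pacemaker cells, 3 rose (*Kit*, *Ano1* and *Etv1*) and 1 fell (*Elovl6*), with summed levels of 180 to 214 CPM in WT and 169.9 to 277 in KO. Of 7 mural cell markers tested, 3 rose (*Rgs5*, *Abcc9* and *Kcnj8*), with a median log2 change of 0.24 and sums of 229.5 to 322 CPM and 361 to 832, most of them from *Rgs5*. *Notch3* and *Pdgfrb* had log2 fold changes of -0.63 and -0.23 and did not pass.

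Of 7 fibroblast markers, 3 rose (*Dcn*, *Dpt* and *Lum*), and the abundant collagen genes *Col3a1*, *Col1a2* and *Col1a1* did not pass, with sums of 821 to 1107 CPM in WT and 811 to 1555 in KO. Of 5 mesothelial markers, only *Krt7*, which epithelia also make, passed the test, as higher (sums of 53.1 to 80.1 CPM and 109 to 179). The median log2 fold change of the 5 was 0.93. Of 6 endothelial markers, 2 fell (*Kdr* and *Emcn*) and 4 did not pass, with sums of 145 to 168 CPM and 103 to 181. Of 11 epithelial markers, 7 rose and 4 did not pass, with sums of 14014 to 16169 CPM and 16535 to 23652. The 2 pancreas markers tested did not pass (6.21 to 15.4 CPM and 6.93 to 27.6), and *Amy2a5* was at 0 in every library. Markers of neurons and glia in full, and of interstitial, mural, fibroblast and epithelial cells in part, thus rose beside the smooth muscle genes, and the part of tissue makeup in the changes was not tested.

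The genes other than the 33 whose level followed the smooth muscle genes most closely from mouse to mouse were ranked by the correlation of log2 CPM with the mean of the 33 genes, after the group means were taken out (n = 10). The first was *Slc25a4*, the mitochondrial ADP/ATP carrier of muscle (r = 0.989), followed by *Csrp1* (0.986), *Mrvi1* (0.985), which codes for a substrate of cyclic GMP-dependent kinase, and *Sspn* (sarcospan, 0.984). The others of the first 10 were *Myom1*, *Abcc9*, *Dgkb*, *Adam33*, *Stmn2* and *Msrb3*, at between 0.976 and 0.981. All 10 were higher in KO, by between 0.77 and 1.75 on the log2 scale, and *Csrp1* and *Abcc9* are also in the lists above.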

How the data were processed

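RNA-seq was carried out on proximal intestine of 5 WT and 5 KO mice (1 library each). The values the authors deposited are raw read counts for Ensembl gene IDs, as whole numbers with no normalization. The submitters' processing notes name FastQC 0.11.9, Trimmomatic, HISAT2 2.0.4, SAMtools 1.3.1, DESeq2 1.14.1 and the genome build GRCm38 (mm10). Which read counter and annotation were used, and whether strand was taken into account, is not given in the sources used here. Library totals are given with the results, and each of the 33 genes had at least 32 counts in each library.

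Gene IDs were matched to GENCODE M21 (34490 of 35275), which also gave exon lengths. Groups were taken from the genotype labels. KO and WT were compared with edgeR 4.0.16 in R 4.3.3 (quasi-likelihood test, TMM, filterByExpr with a minimum count of 10 and a minimum total of 15), with Benjamini-Hochberg adjustment over 15610 genes and a threshold of 0.05. CPM were scaled by TMM factors, and log2 CPM used a prior count of 2. The script was tested on simulated data. The 5 mice of a group are the replicates, and the test sets the difference of the groups against the spread between mice.

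The 33 genes and the gene lists were chosen with earlier results of these data known. All 33 genes were named, with the 3 most abundant genes of each list (1 of them is not reported here), *Slc39a14*, *Fabp6*, *Hoxb9* and the 10 genes most like the mean of the 33. Genes named beyond this rule, such as the called members of the marker lists, were chosen after their values were seen. *Irag1* was matched under no symbol in M21 (there *Mrvi1*) and stayed out of its list. Alternatives were RLE normalization, library size only, other filters, DESeq2 1.42.0, robust dispersion, a replicate block, other bases for the relative test, a prior count of 0.5 and leaving out each mouse. Leaving out each mouse in the pairs of genes was added after the data were seen.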

Additional observations from a re-analysis of the deposited data

Results flagged for a closer look

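Among the 5 mice of a group, a single library stood apart from the others, by Dixon's criterion on log2 CPM, in 4 of 68 groups checked (the 33 genes and their mean, in WT and in KO). Chance marks about 1 group in 20, so that 4 of 68 is near what chance gives. *Acta2* in KO replicate 4 was the highest of its group at 10.71 log2 CPM, and *Pln* in the same library was the highest at 4.78. *Pde5a* in KO replicate 1 was the highest of its group at 7.51 log2 CPM. *Myocd* in KO replicate 5 was the lowest of its group at 1.45 log2 CPM. No WT library and no mean of the 33 genes was marked.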

How the results depend on the processing

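With RLE normalization, library size only, no filter, a minimum mean count of 10, robust dispersion and DESeq2, between 27 and 29 of the smooth muscle genes were higher and *Itga8* was lower. Leaving out each mouse, with the remaining libraries filtered and scaled anew, gave between 24 and 28 higher genes, a difference of the mean log2 CPM between 0.84 and 1.07, and between 10 and 14 genes that departed from the rest. The count of departing genes was 13, 14 with a minimum mean count of 10, 16 with DESeq2 (*Acta2* also higher, *Mylk* and *Actn1* also lower) and 8 when only the thin filament and motor genes set the scale, a base that itself rose more than the mean of the 33 (by 1.42 and 1.10 on the log2 scale). Scaling to library size only raised the median log2 fold change of all genes from 0.03 to 0.15 and the share of calls that were higher from 53.5% to 69.4%. On that scale *Mylk* and *Dmd* also passed. The log2 fold change of *Prkg1* changed sign under the replicate block and without WT replicate 2 or 4 or KO replicate 1 or 2, and that of *Vcl* without KO replicate 2.

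A replicate block left 27 higher genes, 1 lower gene and 15 departing genes. Replicate numbers did not pair the mice: the correlation of deviations between mice of the same number was between -0.167 and 0.177, and only WT replicate 4 matched its own number best. Whether a change passed depended on its spread, as in *Srf* (0.71, SE 0.10, past the test) and *Mylk* (0.63, SE 0.24, not past it), and *Prkg1* and *Myocd* rest on the fewest reads of the 33 genes.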
